A study of Mus musculus with 10 samples.

Results

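Imprinted growth genes were followed through neocortical neurogenesis by ribosome profiling (Ribo-seq), which counts the mRNA fragments that ribosomes protect (RPFs, or footprints). The set holds 10 genes, named as imprinted genes tied to growth: Igf2, Dlk1, Grb10, Plagl1, Cdkn1c, Mest, Peg10, Peg3, Nnat and Ndn. The set and its comparison lists were chosen with earlier results of these data known, so shares set beside all genes are descriptive. All 10 were found among the 22373 genes of the footprint table, and all 10 were among the 13484 genes that reached 32 footprints in total over the libraries of some stage. Neocortex was taken from wild-type CD-1 mice at embryonic days E12.5, E14, E15.5 and E17 after timed mating and at P0, the day of birth. There were 2 libraries per stage and 10 in all, each from a pool of brains in which the sexes were mixed, so a replicate was a pool and not an animal. No stage carried a transgene or a drug, and the lysates were prepared without cycloheximide, digested with RNases A and T1 and reduced to the 80S monosome fraction.

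Genomic imprinting marks a gene by parent of origin, so that mainly the maternal or mainly the paternal copy is read. Many imprinted genes act on growth of the embryo, and they tend to be abundant in fetal tissue and lower after birth. Of the genes described here, Cdkn1c is read mainly from the maternal copy, and Grb10 is maternal in most tissues but paternal in neurons. The others are read from the paternal copy in most tissues, though not in every one. Footprints did not tell the parental copies apart, and their number depends on how much mRNA a gene has as well as on how densely ribosomes cover it. In bulk tissue, fewer cells of a type and less RNA per cell cannot be told apart.

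Promoter sequences are shown for 4 of the genes because imprinting acts through methylation of CG dinucleotides. Whether these windows carry an imprinting mark was not examined. When each gene is taken by its window with the most CG, those printed include the lowest and the highest of the set. Each is the 250 bases before a RefSeq transcription start (GRCm38.p6), 5′ to 3′ on the gene's strand, with every CG in capitals.

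Igf2, chr7:142658805-142659054, minus strand: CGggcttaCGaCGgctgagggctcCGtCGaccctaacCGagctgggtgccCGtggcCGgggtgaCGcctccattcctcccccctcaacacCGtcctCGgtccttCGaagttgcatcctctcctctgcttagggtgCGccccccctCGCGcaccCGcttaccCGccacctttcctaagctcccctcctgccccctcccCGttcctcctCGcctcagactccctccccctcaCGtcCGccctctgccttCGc
Grb10, chr11:12037421-12037670, minus strand: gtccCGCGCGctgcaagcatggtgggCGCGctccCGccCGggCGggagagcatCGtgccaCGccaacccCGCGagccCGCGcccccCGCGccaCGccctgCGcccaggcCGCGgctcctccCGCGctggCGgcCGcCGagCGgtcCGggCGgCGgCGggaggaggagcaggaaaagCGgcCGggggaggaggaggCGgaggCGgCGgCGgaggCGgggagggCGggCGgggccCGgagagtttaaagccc
Nnat, chr2:157559828-157560077, plus strand: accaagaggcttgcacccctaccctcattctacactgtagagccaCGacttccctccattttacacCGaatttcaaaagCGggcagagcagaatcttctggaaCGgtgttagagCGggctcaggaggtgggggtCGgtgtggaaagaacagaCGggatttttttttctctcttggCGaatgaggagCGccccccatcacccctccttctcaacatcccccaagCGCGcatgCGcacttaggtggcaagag
Ndn, chr7:62348027-62348276, plus strand: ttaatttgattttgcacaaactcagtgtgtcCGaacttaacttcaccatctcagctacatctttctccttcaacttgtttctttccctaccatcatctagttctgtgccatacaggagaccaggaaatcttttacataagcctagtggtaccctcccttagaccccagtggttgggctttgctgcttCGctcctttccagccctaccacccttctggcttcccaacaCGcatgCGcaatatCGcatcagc

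For Igf2 and Grb10, which have several annotated starts, the window with the most CG is the one printed. It held 40 CG in Grb10, whose other window held 8, and 22 in Igf2, whose other windows held 1, 10 and 6. Nnat had 12 and Ndn 5. Of the genes not printed, Plagl1 had 19, Mest at most 14, and Dlk1 and Peg3 8 each, so that genes that fell with age had windows both above and below those of Nnat. The median over all windows of the set was 9. Over all 32851 RefSeq windows of this length the median was 6, with quartiles of 2 and 16. The printed Grb10 window thus stood near the top, with fewer CG in 98.7% of all windows, against 57.0% for the other Grb10 window. Windows were found for 8 of the 10 genes, 14 windows in all, with no entry for Cdkn1c and Peg10. The 8 letters GGGGCCCC, known as a site of the Plagl1 protein and identical on both strands, occurred in 1 of these 14 windows, that of Peg3, and in 0.889% of all windows. These windows describe the reference genome, and no methylation was measured.

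The libraries held 7544404 to 36129988 footprints, P0 replicate 1 being the shallowest. Over 4559 well-covered genes, the SD of the log2 ratio between replicates was 0.125 to 0.216 at the embryonic stages and 0.532 at P0, so differences that involve P0 rest on less similar replicates. The neocortical label was checked with marker lists. Summed markers of neocortical neurons rose from a mean of 2403 CPM (counts relative to the TMM-scaled library size) at E12.5 to 8775 at P0. Of the progenitor markers, 10 of 12 were called lower at P0 than at E12.5 (median log2 fold change -2.50) and 2 higher. Their sum went from 2399 to 1750 CPM but was dominated by Fabp7, a radial glial fatty acid binding protein gene that had 969 CPM at E12.5 and 1486 at P0, and without Fabp7, left out after these values were seen, it went from 1430 to 264 CPM. Markers of tissue next to the neocortex were also present, and their levels are given below beside the genes with which they moved.

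Across neurogenesis, 8 of the 10 genes fell and Ndn rose. The mean at P0 stood at 2.36% of that at E12.5 for Dlk1, 6.51% for Igf2, 7.38% for Grb10 and 16.2% for Plagl1. It was 24.00% for Peg10, 24.3% for Mest, 51.6% for Peg3 and 67.4% for Cdkn1c, while Nnat stood at 124% and Ndn at 193%. A gene was called at a limma-voom adjusted p under 0.05 (Benjamini-Hochberg over all 13484 genes, two-sided) and a difference of at least 25%. For P0 against E12.5, 8 of the 10 genes were called lower, against 32% of all genes tested, and 1 was called higher, against 30.1% (62.1% in either direction). The median log2 fold change was -2.10 for the 10 genes and -0.013 for all genes tested. With edgeR, 8 genes in all were called, without Cdkn1c, and with DESeq2 9.

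**Figure D1:**
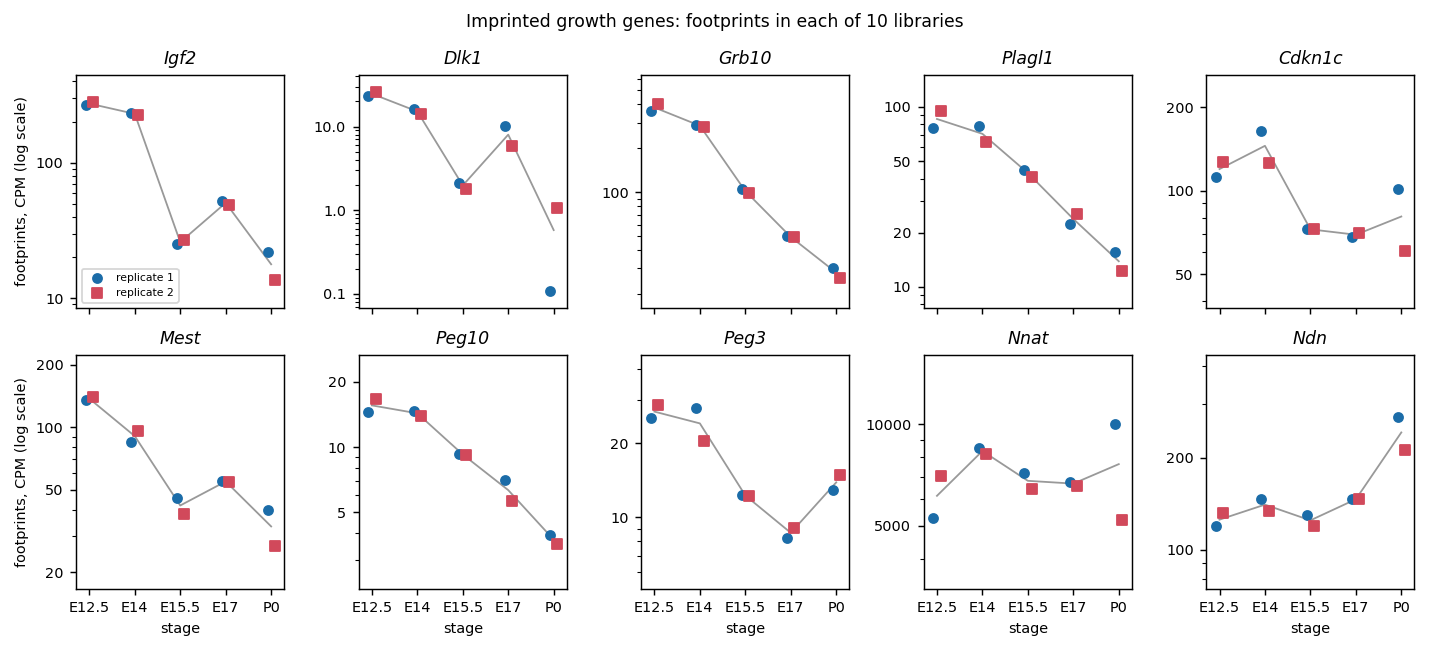
Footprints of the 10 imprinted growth genes in CPM (log scale, a separate range for each gene) against stage, with circles for replicate 1, squares for replicate 2 and a line through the mean of the 2 libraries. Grb10, Plagl1 and Peg10 step down from E12.5 to P0, Igf2, Dlk1 and Mest lie higher at E17 than at E15.5, and the P0 libraries of Nnat lie 1.92-fold apart.

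The steps were uneven. Between E12.5 and E14, 0 of the 10 genes were called by limma-voom, where 0.638% of all genes tested were called (0.497% higher and 0.141% lower), and 3 had an unadjusted p under 0.05. With edgeR 0 were called and with DESeq2 2, Grb10 and Mest. From E14 to E15.5, 8 genes were called lower and 0 higher, against 19.6% and 16.5% of all genes tested (36.1% in either direction). The median log2 fold change at this step was -0.97, beside -0.0086 for all genes. From E15.5 to E17, 2 genes were called higher and 3 lower, against 5.61% and 3.43% (9.04% in either direction). From E17 to P0, 2 were called higher and 6 lower, against 9.46% and 11.1% (20.5% in either direction). Libraries of the 2 stages compared did not overlap for 6 of the 10 genes at the step to E14, where 53.2% of all genes did not, for 10 at the step to E15.5 (76.9%), for 9 at that to E17 (67.8%), for 8 at that to P0 (55.8%) and for 9 between E12.5 and P0 (75.2%). Adjacent steps share a stage, so their values are not independent.

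Many calls at the last 2 steps were lost in some of the alternative fits. Leaving out any library kept the direction of all 5 genes called at E17 against E15.5. From E15.5 to E17, 0 of the 5 calls were left when a single E15.5 or E17 library was dropped, with 5 or 6 genes at an unadjusted limma-voom p under 0.05. The loss was shared by all genes, of which 1219 were called with all libraries and 0 to 18 in these fits. From E17 to P0, 3 calls were left in the absence of E17 replicate 1 and 5 in that of E17 replicate 2. With sample quality weights 3 were left, those of Igf2, Grb10 and Ndn, and in a fit of E17 and P0 alone 0 were left, with 8 genes at an unadjusted p under 0.05. Over all genes the calls likewise went from 2767 to 554 and 1197 without the respective E17 library, to 698 with quality weights and to 0 in the fit of those stages. The count from E14 to E15.5 was at least 6, and that for P0 against E12.5 at least 8, whichever library was left out.

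**Figure D2:**
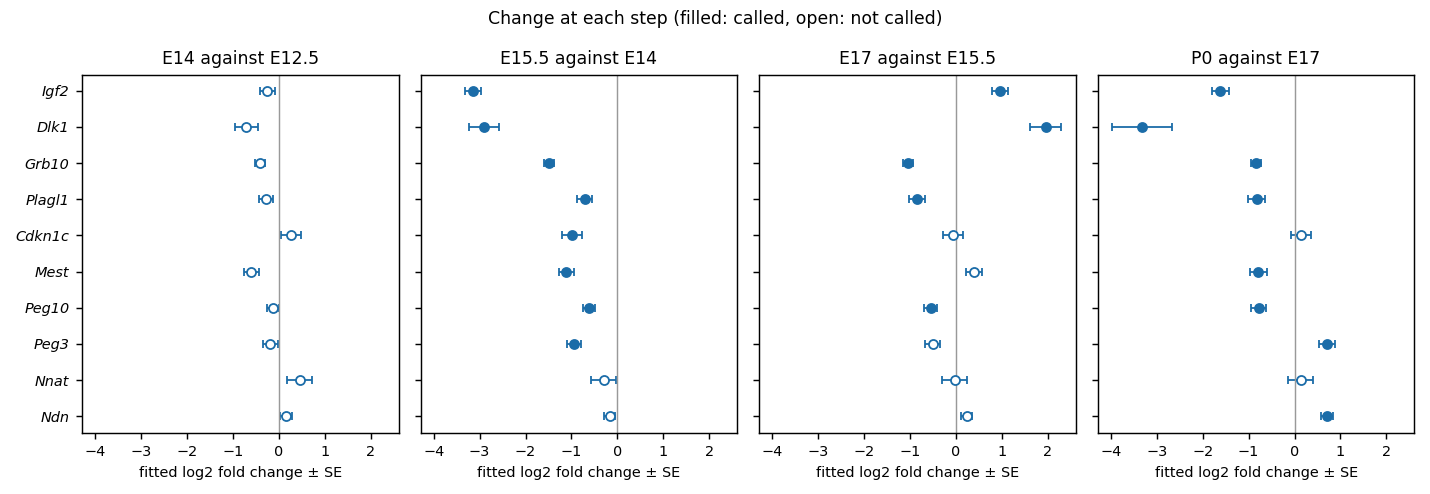
Fitted log2 fold change with its SE (horizontal bars) for each gene at the 4 steps between adjacent stages, with filled points for called genes and open points for others. At E15.5 against E14 the 8 called genes lie left of 0, from Peg10 at -0.63 to Igf2 at -3.15, and at E17 against E15.5 Dlk1 and Igf2 lie right of 0 while Grb10, Plagl1 and Peg10 lie left of it.

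Igf2 (ENSMUSG00000048583, chr7:142650768-142666816) encodes insulin-like growth factor 2, a secreted growth factor of the fetus. Its level was 267 and 280 CPM at E12.5, then 234 and 225 (E14), 25.1 and 26.9 (E15.5), 52.3 and 48.9 (E17) and 22.1 and 13.6 (P0). Both early stages thus lay several-fold above all later libraries, and E17 lay above the stages on either side of it. The fall from E14 to E15.5 was -3.15 on the log2 scale (SE 0.17, adjusted p 4.43e-05), against -0.25 (adjusted p 0.516) from E12.5 to E14. Igf2 then rose by 0.96 to E17 (SE 0.18, adjusted p 0.019) and fell by 1.62 to P0 (SE 0.19, adjusted p 0.00195). The rise was not called when a single E15.5 or E17 library was dropped, with values of 0.91 to 1.01 and adjusted p of 0.110 to 0.167. Over the whole period the log2 fold change was -4.05 (SE 0.18, adjusted p 1e-06).

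Dlk1 (ENSMUSG00000040856, chr12:109452485-109463336) encodes a transmembrane and secreted protein related to the Notch ligands. It had few footprints at the later stages. The libraries held 23.1 and 26.1 CPM at E12.5, then 16.2 and 14.1 (E14), 2.14 and 1.82 (E15.5), 10.1 and 5.89 (E17) and 0.109 and 1.05 (P0). The E15.5 values rested on 71 and 43 footprints and the P0 values on 1 and 44. For P0 replicate 1 the exact Poisson 95% interval ran from 0.00275 to 0.606 CPM, which covers counting error only. As in Igf2, E17 lay above the stages on either side of it without overlap. The log2 fold change was -0.71 (SE 0.25, adjusted p 0.216) for the step to E14, -2.91 (SE 0.33, adjusted p 0.000421) for that to E15.5 and 1.96 (SE 0.34, adjusted p 0.0166) for that to E17. The rise to E17 was not called when a single E15.5 or E17 library was dropped, with adjusted p of 0.0741 to 0.152. At P0 it fell by 3.32 (SE 0.65, adjusted p 0.0109), which was -5.58 and not called without P0 replicate 2 (adjusted p 0.0946). P0 against E12.5 gave -4.98 (SE 0.64, adjusted p 0.00023).

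The fall of Igf2 and Dlk1 at E15.5 coincided with one in markers of neighbouring tissue. Of the tested markers of meningeal fibroblasts, which secrete collagens, 11 of 11 were called lower from E14 to E15.5, with a median log2 fold change of -4.43. Their summed level was 112 and 114 CPM at E12.5, then 73.9 and 82.7 (E14), 3.62 and 3.38 (E15.5), 8.73 and 5.59 (E17) and 5.44 and 4.51 (P0). The E17 libraries lay above those of E15.5 and P0 in the fibroblast sum, in Igf2 and in Dlk1. Of the fibroblast markers, 1 of 11 was called higher at E17 and 0 of 11 were called from E17 to P0. Markers of choroid plexus epithelium were highest at E14. Their sum rose from 354 and 293 CPM at E12.5 to 1168 and 1176 at E14, with 4 of 8 tested genes called higher (median 1.38). All 8 were then called lower at E15.5, and the sum stayed between 8.52 and 17.7 CPM later. Of the markers of endothelial and mural cells, 10 of 12 were called lower at E15.5 (median -1.93) and 7 of 12 from E17 to P0 (median -1.28). At E17, 1 of 12 was called higher (median 0.93), with all 12 fitted above 0. Rgs5 rose from a mean of 25.4 CPM at E12.5 to 55.6 at P0. Without Rgs5, left out after its values were seen, the mean sum was 44.7 CPM at E14, then 12.6 (E15.5), 22.3 (E17) and 11.3 (P0). With Rgs5 the sum was 81.7, 57.4, 86.1 and 67.0 CPM, so E17 lay above both neighbouring stages either way. No fibroblast or endothelial marker was at 0 in both libraries of any stage, and of the choroid plexus markers Prlr was at 0 in both E15.5 libraries. The part of these cell types in the footprints of Igf2 and Dlk1 was not tested.

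**Figure D3:**
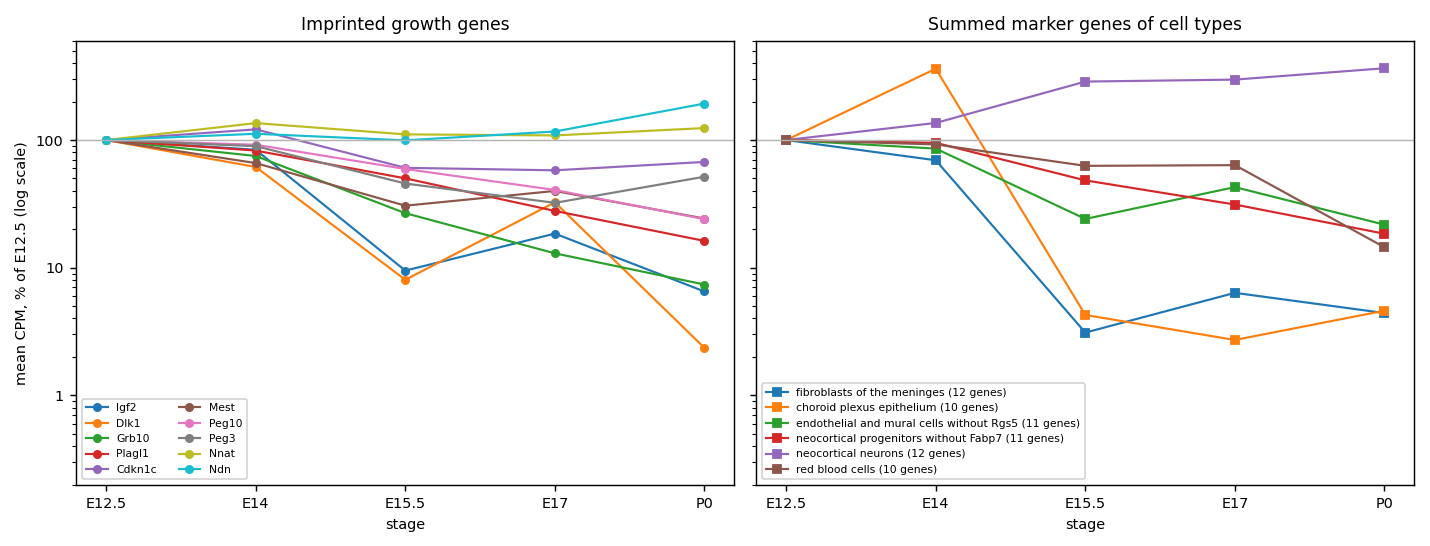
Mean CPM at each stage as a percentage of the E12.5 mean (log scale, 2 libraries per stage), for the 10 imprinted growth genes on the left and for summed marker genes of 6 cell types on the right, leaving out Fabp7 and Rgs5, which dominated their lists. Igf2 and Dlk1 drop to 9.49% and 8.04% at E15.5, where the fibroblast sum drops to 3.10%, and each of the 3 is higher again at E17.

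Grb10 (ENSMUSG00000020176, chr11:11930499-12037428) encodes an adaptor that binds the insulin and IGF1 receptors and dampens their signalling. Its level was 361 and 400 CPM at E12.5, then 290 and 281 (E14), 106 and 98.0 (E15.5), 49.7 and 49.0 (E17) and 30.5 and 25.7 (P0). The libraries of successive stages did not overlap, and each stage lay below the one before. The step to E14 was not called at -0.41 on the log2 scale (SE 0.10, adjusted p 0.104), but passed in fits lacking P0 replicate 1 or 2 (adjusted p 0.0187 and 0.0207), with DESeq2 (0.0193) and under sample quality weights (0.0300). It fell by 1.49 to E15.5 (SE 0.10, adjusted p 7.63e-05), by 1.04 to E17 (SE 0.11, adjusted p 0.00679) and by 0.83 to P0 (SE 0.11, adjusted p 0.00309). The step to E17 was not called when a single E15.5 or E17 library was dropped (adjusted p 0.0566 to 0.121). P0 against E12.5 gave -3.78 (SE 0.11, adjusted p 4.05e-07).

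Plagl1 (ENSMUSG00000019817, chr10:13090832-13131694), also called Zac1, encodes a zinc finger transcription factor that restrains proliferation. The libraries held 76.8 and 94.5 CPM at E12.5, then 78.3 and 63.4 (E14), 44.9 and 41.0 (E15.5), 22.3 and 25.4 (E17) and 15.6 and 12.2 (P0). The stages E12.5 and E14 overlapped, and from E14 onwards each stage lay below the one before. The successive log2 fold changes were -0.71 (SE 0.16, adjusted p 0.00981), -0.85 (SE 0.17, adjusted p 0.0214) and -0.83 (SE 0.18, adjusted p 0.0163). The first was not called without E14 replicate 1 or E15.5 replicate 2 (adjusted p 0.0696 and 0.0743), the next when a single E15.5 or E17 library was dropped (adjusted p 0.109 to 0.181), and the last without either E17 library or P0 replicate 2 (adjusted p 0.0699 to 0.0915). P0 against E12.5, at -2.67 (SE 0.18, adjusted p 5.25e-06), was called whichever library was left out.

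Cdkn1c (ENSMUSG00000037664, chr7:143458339-143461059) encodes p57Kip2, an inhibitor of cyclin-dependent kinases, and lies close to Igf2 on chromosome 7. Its level was 113 and 127 CPM at E12.5, then 164 and 126 (E14), 72.59 and 72.62 (E15.5), 68.2 and 70.6 (E17) and 101 and 60.4 (P0). Libraries of E12.5 and E14 lay above those of E15.5 and E17, while the P0 libraries lay 1.68-fold apart and spanned both later stages. The fall at E15.5 was -0.99 (SE 0.22, adjusted p 0.00921). It was not called without E14 replicate 1 or either E15.5 library (adjusted p 0.0552 to 0.0677). For P0 against E12.5 the value was -0.65 (SE 0.22, adjusted p 0.0332), with -0.99 in the absence of P0 replicate 1 and -0.24 in that of P0 replicate 2. That call was lost with edgeR (adjusted p 0.0577), under sample quality weights (0.120), in a fit of those stages alone (0.148), and without any one of the E12.5, E15.5 and E17 libraries or P0 replicate 2 (adjusted p 0.0540 to 0.218). From E17 to P0 its fitted value was 0.14, which moved to -0.20 in the absence of P0 replicate 1 and to 0.54, called, in that of P0 replicate 2 (adjusted p 0.0344).

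Mest (ENSMUSG00000051855, chr6:30733506-30748466) encodes a membrane protein with an alpha/beta hydrolase fold. It had 135 and 139 CPM at E12.5, then 84.9 and 96.2 (E14), 45.6 and 38.3 (E15.5), 55.3 and 54.2 (E17) and 39.8 and 26.8 (P0). As with Igf2, the E17 libraries lay above those of E15.5, though this difference of 0.39 on the log2 scale (SE 0.17, adjusted p 0.206) passed only in fits lacking P0 replicate 1 or 2 (adjusted p 0.0294 and 0.0305), with those stages fitted alone (0.0298) and under sample quality weights (0.0171). Mest fell by 1.11 to E15.5 (SE 0.17, adjusted p 0.00165) and by 0.78 from E17 to P0 (SE 0.18, adjusted p 0.0188). The latter was not called without either E17 library (adjusted p 0.116 and 0.0812), and it was -0.46 without P0 replicate 2. The step to E14, at -0.60 (adjusted p 0.134), passed in fits lacking P0 replicate 1 or 2 (adjusted p 0.0142 and 0.0157), with DESeq2 (0.0482) and under sample quality weights (0.0300). P0 against E12.5 gave -2.11 (SE 0.18, adjusted p 1.9e-05).

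Peg10 (ENSMUSG00000092035, chr6:4747306-4760517) derives from a retrotransposon and makes a Gag-Pol protein through a ribosomal frameshift. Its libraries held 14.5 and 16.6 CPM at E12.5, then 14.7 and 13.9 (E14), 9.31 and 9.16 (E15.5), 7.02 and 5.63 (E17) and 3.92 and 3.56 (P0). E12.5 and E14 overlapped, and each later stage lay below the one before. Peg10 fell by 0.63 to E15.5 (SE 0.13, adjusted p 0.00666). The step to E17 was just called at -0.55 (SE 0.14, adjusted p 0.046), and was lost with edgeR (adjusted p 0.0507), with DESeq2 (adjusted p 0.108) and without any one of the E12.5, E14, E15.5 and E17 libraries (adjusted p 0.0669 to 0.256). It fell by 0.78 from E17 to P0 (SE 0.16, adjusted p 0.0128), a call that was lost without E17 replicate 1 or P0 replicate 2 (adjusted p 0.0985 and 0.078). P0 against E12.5, at -2.09 (SE 0.15, adjusted p 9.99e-06), was called whichever library was left out.

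The falls of Grb10, Plagl1 and Peg10 went along with falls in most progenitor markers. Of 12 such markers, 10 were called lower from E14 to E15.5 (median log2 fold change -1.002), 6 from E15.5 to E17 (median -0.50) and 6 from E17 to P0 (median -0.53), with 1, 1 and 0 called higher. Their sum without Fabp7 was 1372 and 1488 CPM at E12.5, then 1423 and 1297 (E14), 713 and 669 (E15.5), 470 and 424 (E17) and 279 and 248.7 (P0), so each stage from E15.5 on lay below the one before. Fabp7 itself had a mean of 969 CPM at E12.5 and 2054 at E17. With Fabp7 the mean sum was 2399 CPM at E12.5, then 2417 (E14), 2319 (E15.5), 2501 (E17) and 1750 (P0). In that sum only the P0 libraries lay below those of all other stages. None of the progenitor markers was at 0 in both libraries of a stage. The part of these cells in the falls of these genes was not tested.

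Peg3 (ENSMUSG00000002265, chr7:6703892-6730462), a gene for a large zinc finger protein, fell and then rose. It had 25.2 and 28.5 CPM at E12.5, then 27.7 and 20.4 (E14), 12.3 and 12.2 (E15.5), 8.22 and 9.09 (E17) and 12.9 and 14.8 (P0). Its lowest stage was E17, and the P0 libraries lay above those of E17 and E15.5 but below those of E12.5 and E14. Peg3 fell by 0.95 to E15.5 (SE 0.16, adjusted p 0.00242) and rose by 0.70 from E17 to P0 (SE 0.17, adjusted p 0.024). The rise was not called without either E17 library or P0 replicate 2, with values of 0.59 to 0.77 and adjusted p of 0.0757 to 0.156. The step to E17 was not called (-0.51, adjusted p 0.101) but passed under sample quality weights (0.0120) and with those stages fitted alone (0.0102). P0 against E12.5 gave -0.93 (SE 0.16, adjusted p 0.00122), which was -0.41 with library sizes from total counts only.

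Ndn (ENSMUSG00000033585, chr7:62348277-62349928), for necdin, a protein of the MAGE family found in postmitotic neurons, was the gene of the set that was called higher at P0 than at E12.5. Its level was 119 and 131 CPM at E12.5, then 147 and 134 (E14), 129 and 120 (E15.5), 146.4 and 145.9 (E17) and 271 and 213 (P0). The embryonic libraries stayed between 119 and 147 CPM, and both P0 libraries lay above all of them. None of the embryonic steps was called (log2 fold changes 0.16, -0.17 and 0.23). The rise from E17 to P0 was 0.71 (SE 0.13, adjusted p 0.00777), and was not called without E17 replicate 1 (adjusted p 0.0679). P0 against E12.5 gave 0.94 (SE 0.13, adjusted p 0.000327), and 1.46 with library sizes from total counts only.

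Nnat (ENSMUSG00000067786, chr2:157560078-157562525) encodes neuronatin, a small proteolipid of the endoplasmic reticulum membrane. It took between 0.448% and 1.22% of all footprints of a library. The libraries held 5270 and 7004 CPM at E12.5, then 8479 and 8185 (E14), 7154 and 6442 (E15.5), 6758 and 6582 (E17) and 10019 and 5217 (P0). The P0 libraries were the highest and the lowest of all 10, and no neighbouring pair in the order of stage means was free of overlap. No comparison was called (log2 fold changes 0.46, -0.30, -0.02 and 0.14 at the successive steps and 0.27 for P0 against E12.5). Without P0 replicate 1 the last of these was -0.22. Without P0 replicate 2 it was 0.72 and called (adjusted p 0.00371), and 0.80, also called, with total counts only (adjusted p 0.0287). P0 against E17 likewise went from -0.35 without P0 replicate 1 to 0.59, called, without P0 replicate 2 (adjusted p 0.0215).

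Members of the set were compared in shape by Pearson's r of log2(CPM + 0.5) over the 10 libraries, a description over points that share 5 stages and their depth. Plagl1, Grb10 and Peg10 were alike, with r of 0.983 to 0.987 for the 3 pairs. Igf2 was most like Mest (0.970) and then Dlk1 (0.914). Nnat followed none of the others closely, its highest r being 0.489 with Cdkn1c, and Ndn ran against most, with -0.783 against Peg10 and -0.755 against Plagl1. In a search of 9215 genes, with members of the set passed over, Igf2 was closest to Apcdd1 (0.995) and to the basement membrane collagen gene Col4a1 (0.993). Apcdd1 went from 17.4 CPM at E12.5 to 2.66 (E15.5), 4.80 (E17) and 2.44 (P0), and Col4a1 from 28.7 to 2.29, 4.16 and 1.89. Dlk1 was closest to Tmem237 (0.985) and the secreted glycoprotein gene Fstl1 (0.972). The size of the change differed, since r compares shape only. From E12.5 to P0, mean CPM went from 24.6 to 0.579 for Dlk1, from 21.1 to 12.1 for Tmem237 and from 36.8 to 7.38 for Fstl1. Peg10 was closest to Aurkb (0.998), a mitotic kinase gene, and Vim (0.997), an intermediate filament gene of radial glia. Grb10 was closest to Asf1b (0.999), a histone chaperone gene, and Sp1 (0.999), and Plagl1 to Psrc1 (0.995) and the DNA polymerase gene Pold1 (0.993). For Mest the closest were Scpep1 (0.995) and Ppt2 (0.994), for Peg3 Ckb and Dmd (0.978 each), and for Ndn Tpgs1 (0.984) and Purb (0.983). Nnat was closest to Ankrd54 (0.982) and BC003965 (0.966), and Cdkn1c to the ribosomal fusion gene Fau and to Gm9843 (0.972 each).

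The other genes of the insulin-like growth factor axis gave the surroundings of Igf2 and Grb10. Of 25 listed genes, 17 were tested. From E14 to E15.5, 10 of 17 were called lower and 2 higher (median -0.74), against 19.6% and 16.5% of all genes tested. For P0 against E12.5, 14 were lower and 3 higher (median -1.59), against 32% and 30.1%. The receptor that clears Igf2, Igf2r, had a mean of 4.87 CPM at E12.5 and 1.04 at P0 (log2 fold change -2.24, adjusted p 1.18e-05), and the signalling receptor Igf1r had 6.38 and 3.44 (-1.05, adjusted p 0.00107). These receptors were picked for their role with Igf2 after their values were seen. The genes for Igf2 mRNA-binding proteins fell furthest, Igf2bp1 from 20.9 ± 1.1 CPM (SD, n = 2) to 0.810 ± 0.069 (log2 fold change -4.60, SE 0.22), with log2 fold changes of -3.89 for Igf2bp2 and -2.58 for Igf2bp3. Igf1 rose by 1.00 (SE 0.31, adjusted p 0.0199) and Igfbp3, for a carrier protein, by 0.75 (SE 0.14, adjusted p 0.00202). At E15.5, Igfbp3 rose by 1.37 while Igf2bp1, Igfbp4 and Igfbp7 fell by 1.74, 1.62 and 1.48.

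Imprinted genes outside the set did not share one direction, and neither did all genes tested. Of 47 listed, 34 were tested, and for P0 against E12.5 15 were called higher and 8 lower, with a median log2 fold change of +0.37. Over all genes tested, 30.1% were called higher and 32% lower in this comparison. From E14 to E15.5, 6 were higher and 8 lower (median 0.13), where 16.5% and 19.6% of all genes tested were. Cobl rose from 1.73 ± 0.81 CPM (SD, n = 2) at E12.5 to 18.4 ± 1.7 at P0, and Nap1l5 from 5.79 ± 0.68 to 61.3 ± 12.3. Snrpn, which shares its transcript with Snurf so that the counts of each are uncertain, rose from 28.1 ± 2.2 to 153 ± 7.0. Peg12 fell from 8.52 ± 0.54 to 1.02 ± 0.094 CPM, Sgce, the neighbour of Peg10, from 22.3 ± 5.6 to 12.6 ± 0.12, and Commd1 from 56.5 ± 1.3 to 33.3 ± 12.48. At E15.5 Nap1l5, Usp29 and Inpp5f rose by 1.30, 1.29 and 1.26 on the log2 scale, and Peg12, Cd81 and Tssc4 fell by 2.01, 0.66 and 0.62. The difference between the set and this list was not tested.

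Relatives of the set that are not imprinted were 10 genes, of which 9 were tested. For P0 against E12.5, 4 were called higher and 2 lower (median 0.42), where 30.1% and 32% of all genes tested were. From E14 to E15.5, 2 were higher and 3 lower, where 16.5% and 19.6% of all genes tested were. Dlk2, the relative of Dlk1, rose from 0.672 ± 0.53 CPM (SD, n = 2) at E12.5 to 10.7 ± 1.3 at P0 (log2 fold change 4.36, SE 0.47, adjusted p 8.28e-05). Grb14, an adaptor of the Grb10 family, rose from 1.36 ± 0.14 to 7.11 ± 0.98 (2.39, SE 0.19, adjusted p 1.37e-05). At E15.5, Dlk2 rose by 1.42 and Grb14 by 1.07, while Cdkn1a, the relative of Cdkn1c, fell by 1.23. Plag1 and Plagl2, relatives of Plagl1 named after their values were seen because their footprints were few, were called lower for P0 against E12.5, with log2 fold changes of -2.94 and -3.63 (adjusted p 6.88e-05 and 2.2e-05). The remaining relatives are given here for P0 against E12.5. Maged2 and Igf1 were called higher (0.59 and 1.00), and Cdkn1a (0.42), Cdkn1b (-0.05) and Maged1 (0.11) were not called. Cdkn1a was called higher from E17 to P0 (1.38, adjusted p 0.00622). Relatives thus did not share one direction.

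**Figure D4:**
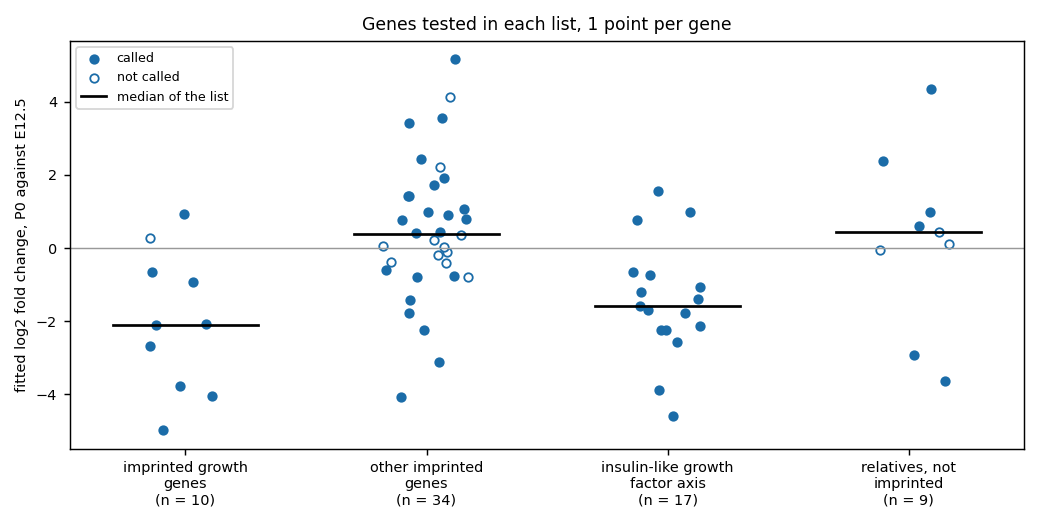
Fitted log2 fold change for P0 against E12.5 of each tested gene (1 point per gene, filled where called) in the set and in 3 comparison lists, with a bar at each list's median. The medians are -2.10 for the imprinted growth genes, 0.37 for other imprinted genes, -1.59 for the insulin-like growth factor axis and 0.42 for relatives that are not imprinted; Igf2r and Igf1 stand in more than one list.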

How the data were processed

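Ribosome profiling of neocortex gave 10 libraries in 5 stages. The deposited values are raw footprint counts, whole numbers that the authors did not normalise. Before deposit, the authors trimmed adapters with cutadapt, collapsed duplicate sequences, removed tRNA, rRNA and snoRNA reads with Bowtie 2 and aligned the rest with STAR (2.7.0 in the submitters' processing notes) to GENCODE coding sequences and the genome, and multimapping reads were kept. Whether the counts passed through the isoform estimates that the methods name is not given in the sources used here, so genes with near-identical copies, such as Fau and Gm9843, are uncertain. The build of the counts is not named in the table, and coordinates are those of RefSeq genes on GRCm38.p6, matched by symbol. Of the gene identifiers, 99 had no symbol.

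The analysis used R 4.3.3. The filter kept 13484 of 22373 genes, those that reached 32 footprints in total over the libraries of some stage. The test was limma-voom (limma 3.58.1) with TMM factors (edgeR 4.0.16) and a coefficient for each stage in a single fit of 10 libraries, in which stages share the estimated spread. Two-sided moderated tests were adjusted by Benjamini-Hochberg across these genes. Calls needed an adjusted p under 0.05 with a difference of at least 25%. The 5 comparisons were the 4 adjacent steps and P0 against E12.5. P-values measure the spread between pooled libraries. Depth was 7544404 to 36129988 counts, and Poisson intervals cover counting error only. Coding lengths were not used, so levels are not compared between genes.

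Alternatives were edgeR's quasi-likelihood test, DESeq2 1.42.0, its size factors, total counts only, TMM without Hist genes, no filter, sample quality weights, the compared stages alone, a replicate block and leaving out each library. The code was tested on simulated counts. The 10 genes, the 3 comparison lists (47 other imprinted genes, 25 genes of the insulin-like growth factor axis and 10 relatives) and the 8 marker lists were chosen with earlier results of these data known. All 10 genes are named. From each comparison list, up to 3 called genes with the largest rise and up to 3 with the largest fall are named for E15.5 against E14 and P0 against E12.5, among genes whose mean reached 100 counts. For each of the 10 genes, the 2 genes of at least that mean with the highest Pearson's r are named. Of the marker lists not described above, summed levels went from 20.8 CPM at E12.5 to 176 at P0 for the ganglionic eminence, from 27.5 to 125 for glia and from 11410 to 1650 for red blood cells.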

Additional observations from a re-analysis of the deposited data

How the results depend on the processing

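Among values of the 10 genes under alternatives, 852 kept direction and side of the threshold, 73 lost a call, 18 gained one and 7 changed sign. The values that changed sign were Nnat for E17 against E15.5 (0.038 with total counts only, -0.11 to 0.050 when a library was left out), for P0 against E17 (-0.35 without P0 replicate 1 to 0.59 without P0 replicate 2) and for P0 against E12.5 (-0.22 to 0.72 likewise), Peg3 for E14 against E12.5 (-0.39 without E14 replicate 1 to 0.044 without E14 replicate 2), Ndn for E15.5 against E14 with total counts only (0.13) and Cdkn1c for P0 against E17 (-0.20 without P0 replicate 1 to 0.54 without P0 replicate 2). None of these had been called. For E14 against E12.5, the genes called were 2 with DESeq2 and with sample quality weights, and 0 to 2 when a library was left out. Leaving out a library gave 6 to 8 calls for E15.5 against E14, 0 to 6 for E17 against E15.5, 3 to 8 for P0 against E17 and 8 to 9 for P0 against E12.5. Over all genes the same fits gave 0 to 1059, 2739 to 6270, 0 to 2814, 554 to 4372 and 6955 to 9248 calls, from the first comparison to the last. For P0 against E17 there were 3 with sample quality weights and 0 with only those 2 stages, against 698 and 0 over all genes. The cause was not tested. Total counts only raised the median of all genes by 0.29 for E15.5 against E14, 0.11 for P0 against E17 and 0.53 for P0 against E12.5, and the share of calls that were higher went from 45.6% to 72.7%, from 46.1% to 63.4% and from 48.5% to 72.0%. With this scaling Plagl1 and Peg10 were not called for E15.5 against E14 (-0.42 and -0.33, adjusted p 0.0572 and 0.0555), nor Cdkn1c for P0 against E12.5 (-0.12). The main fit took replicate numbers as unpaired. Over 4559 genes, differences between replicates correlated from -0.641 (E12.5 with P0) to 0.429 (E15.5 with P0) between stages. E12.5 correlated negatively with every other stage. These values do not decide whether same-numbered libraries share a batch, which was not tested. With a replicate block the counts were 0, 8, 4, 8 and 9 in the order of the comparisons, the call missing being Peg10 for E17 against E15.5 (-0.55, adjusted p 0.0707). Depth limits Dlk1, with 1 and 44 footprints at P0, more than the other genes.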

Other observations

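Within the replicate libraries of P0, Dlk1 differed 9.65-fold, Nnat 1.92-fold, Cdkn1c 1.68-fold, Igf2 1.63-fold and Mest 1.49-fold, while Peg10 differed 1.10-fold and Peg3 1.14-fold. Replicate 1 was the higher library for Nnat, Cdkn1c, Igf2, Mest, Peg10, Grb10, Plagl1 and Ndn and the lower for Dlk1 and Peg3. In the same libraries the summed progenitor markers without Fabp7 were 279 CPM in replicate 1 and 248.7 in replicate 2, and those of endothelial and mural cells without Rgs5 14.2 and 8.42 CPM. Other sums were lower in replicate 1, with 1487 and 2013 CPM for progenitor markers with Fabp7 and 8294 and 9256 for neocortical neurons. The part of these cell types in the differences was not tested.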
